A study of Mus musculus with 4 samples.

Results

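Of the 13831 symbols that the deposited read table gives to single RNA molecules, 49 are names of mouse repeats of the LINE-1 or endogenous retrovirus (ERV) kind, and they held 2183 of 1903919 reads, or 0.115%. The names were taken by their first letters alone (L1Md, L1_, L1M, L1V, Lx with a digit, IAP, RLTR, MERV, MMERV, MMETn, ETn, MuRRS, ORR1, RMER, MLT1, MTA_, MTB, MTC, MTD and MTE). These prefixes use no measured value, but they were chosen with earlier results of these data known. They comprised 19 LINE-1 names, 13 names of the ERVL-MaLR type (ORR1 and MTA_ to MTE) and 17 other ERV names (IAP, RLTR, MMERV, MMETn and RMER). Of the prefixes searched, MERV, ETn, MuRRS, MLT1 and MTD matched 0 symbols. The cells were J1 mouse embryonic stem cells, grown in serum with LIF and not treated. Wild-type cells (WT) were set against cells with a knockout of Mov10 (KO), with 2 libraries of each, numbered 1 and 2. Each read carries an estimated length of its poly(A) tail in nucleotides (nt). The labels do not say how Mov10 was disrupted, whether KO is 1 clone, or whether the 2 libraries of a genotype came from separate cultures, so p-values measure the spread between these libraries only.

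LINE-1 elements are retrotransposons that copy themselves through a polyadenylated RNA, and ERVs are retroviruses fixed in the genome, flanked by long terminal repeats (LTRs). In mouse embryonic stem cells most copies are kept silent by histone methylation that Trim28 and Setdb1 bring to them and by DNA methylation. Mov10 is an RNA helicase known to restrict LINE-1 retrotransposition. The LINE-1 machinery also copies cellular messenger RNAs back into the genome as processed pseudogenes, and ribosomal protein genes are known for having many of these.

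Reads with a tail numbered 439535 and 351133 in WT 1 and WT 2, and 683239 and 430012 in KO 1 and KO 2. Mov10 had 26 and 14 reads in WT against 0 and 1 in KO. All 10 stem cell markers examined (Pou5f1, Nanog, Sox2 and others) had reads, with summed levels of 9565 and 9691 reads per 1000000 reads of the library (RPM) in WT and, lower in both libraries, 8307 and 7246 RPM in KO. The fibroblast feeder list reached at most 17.6 RPM, with Col1a1, Col1a2 and Col3a1 at 0 reads in all 4 libraries. Lists for primitive endoderm and mesoderm reached at most 2.85 and 6.98 RPM. The neural list had 29.6 and 76.9 RPM in WT against 126 and 88.4 RPM in KO; the part of either list in the results was not tested. In bulk RNA, fewer cells of a type and less RNA per cell cannot be told apart.

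Nearly every repeat-named read lay on an annotated transcript that also carried a gene symbol. All 27785 contigs of the table, the reference sequences to which reads are assigned, are Ensembl transcripts. No read could therefore be placed outside one, and a gene symbol is any symbol that is not a repeat name, pseudogenes included. The share of all contigs that carry a gene symbol is not given. A high share thus says little about where these reads arose. Repeat names occurred on 110 of them, and 102 of these also carried at least 1 read with a gene symbol. These 102 contigs held 2174 of the 2183 repeat-named reads, or 99.6% (95% Wilson interval 99.2 to 99.8%). The WT libraries had shares of 99.5% and 99.7% and the KO libraries 99.4% and 99.8%, with overlapping intervals. For 43 of the 49 names every read lay on a contig that also carried a gene symbol. Lx3B (99.8% of 1318 reads), IAPEz-int (83.3% of 6 reads) and MMETn-int (66.7% of 3 reads) had some reads elsewhere, and Lx8, ORR1A0-int and ORR1B1-int had none on such a contig, on 1, 2 and 1 reads. On 97 of the 110 contigs the reads with gene symbols outnumbered the repeat-named ones, and on 3 contigs with a gene symbol they were fewer. Whether such reads came from the gene, from a processed copy of it or from a repeat copy was not tested, since the sources used here do not say how symbols were given to reads.

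By reads, though not by contigs, these transcripts were mostly those of ribosomal protein genes. Each contig was labelled with the gene symbol that had most reads on it, called its leading gene here. Contigs led by a gene for a cytosolic ribosomal protein held 88.1% of the repeat-named reads (1924), against 32.1% of all reads. Of these 1924 reads, 1309 were Lx3B reads on Rps7 contigs. By number, ribosomal protein genes led 29 of the 110 contigs, which had 66 different leading genes in all. The share of all contigs led by such a gene is not given, so this count shows neither an excess nor its absence. Contigs that carried a symbol classed as a pseudogene by RefSeq (assembly GRCm38.p6) held 93.4% of the repeat-named reads, against 38.8% of all reads. By number, 40.9% of the contigs with a repeat name carried a pseudogene symbol, against 2.06% of all contigs but 49.6% of contigs with at least 1000 reads. Repeat names were also found on well-covered contigs: the median number of reads was 77 for contigs with a repeat name and 7 for all contigs. Of the 254 contigs with at least 1000 reads, 20 (7.87%) carried a repeat name, against 0.396% of all contigs. These shares are descriptions over contigs and are not independent of read number.

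**Figure D1:**
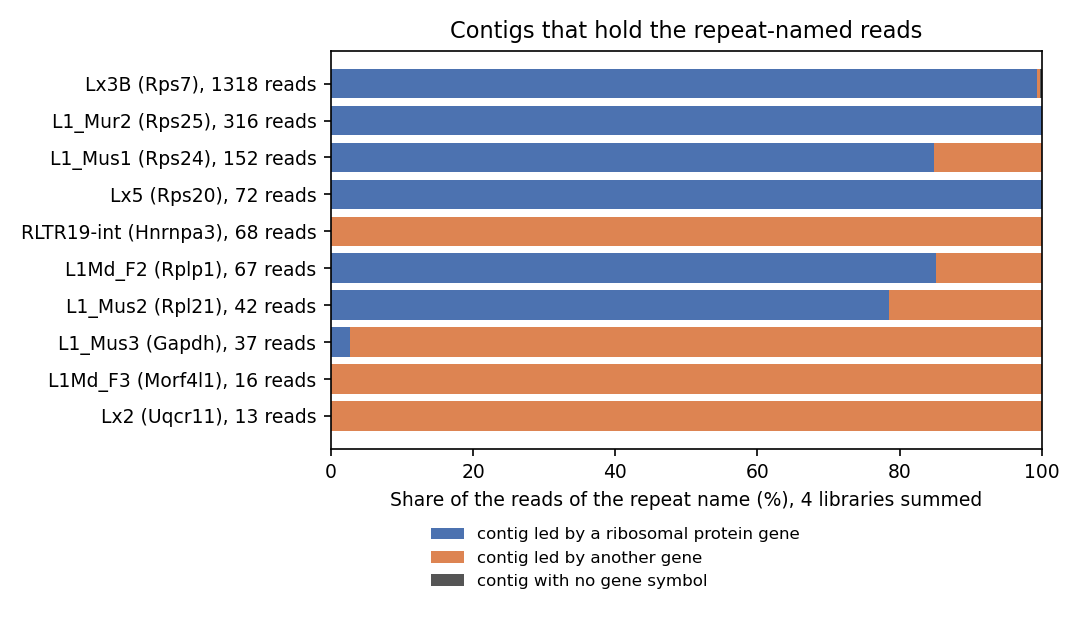
Share of the reads of each repeat name (x axis, percent, 4 libraries summed) that lay on contigs led by a ribosomal protein gene, led by another gene, or with no gene symbol, for the 10 names with at least 10 reads; the leading gene is in parentheses. Lx3B and L1_Mur2 are almost wholly on ribosomal protein contigs, and RLTR19-int is on those of Hnrnpa3.

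Lx3B, an old rodent LINE-1 subfamily, held 1318 reads, 60.4% of all repeat-named reads. Of these, 1309 lay on contigs of Rps7, which encodes a protein of the small ribosomal subunit, and 1267 on the single transcript ENSMUST00000074267.4. On that transcript Lx3B was named by 1267 of 2339 reads (54.2%) and Rps7 by 1046, with the remaining reads on 3 symbols classed as pseudogenes. On another contig led by Rps7, ENSMUST00000178147.2, Lx3B likewise had more reads than Rps7, with 15 against 7 of 26.

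The other LINE-1 names followed the same layout at a lower share. L1_Mur2 had all of its 316 reads on contigs of Rps25, also of the small subunit, 293 of them on ENSMUST00000080300.8, where it made up 4.26% of 6876 reads. L1_Mus1 had 123 of 152 reads on Rps24 contigs and 23 on a contig of Hmgb2, a chromatin protein. Lx5 had all 72 reads on contigs of Rps20. L1Md_F2, of the F family of mouse LINE-1, had 45 of 67 reads on a contig of Rplp1, 12 on Rps18 contigs and 9 on Atp5l. L1_Mus2 had 33 of 42 reads on contigs of Rpl21, and L1_Mus3 had 33 of 37 on contigs of Gapdh, the glycolytic enzyme. L1_Mus3 had 8 and 5 reads in WT and 8 and 16 in KO.

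The rarer LINE-1 names lay on a wider set of genes. L1Md_F3 had 0 and 3 reads in WT and 7 and 6 in KO, all on contigs of Morf4l1, a subunit of histone acetyltransferase complexes. Lx2 had 0 and 5 reads in WT and 5 and 3 in KO, 12 of the 13 on Uqcr11, a respiratory chain subunit. Both were undetected in WT 1, where 0 reads allow up to 6.83 RPM, against at most 14.2 RPM in any library. L1Md_A, the A-type family known to hold full-length active copies, had 2 and 3 reads in WT and 2 and 1 in KO, 7 of the 8 on contigs of Rpl7a.

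Among ERV names a single one exceeded 7 reads. RLTR19-int, the internal part of an ERV, had 68 reads, all on 4 contigs of Hnrnpa3, which encodes an RNA-binding protein of the spliceosome-associated hnRNP family. Its share of the contig's reads was 28.2%, 24.2%, 9.39% and 2.47% over these 4 contigs. The pseudogene symbol Gm5641 occurred on each of the same contigs. RLTR9E had 0 and 3 reads in WT and 4 and 0 in KO, 5 of the 7 on 2410141K09Rik.

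Names of the ERV families best known in mouse stem cells were at the limit of detection. IAPEz-int, the internal part of the intracisternal A-particle, had 0 reads in both WT libraries, 2 reads in KO 1 and 4 reads in KO 2. Of these 6 reads, 5 lay on a contig of Noct, which encodes a circadian phosphatase. A count of 0 allows up to 3 reads, which is 6.83 RPM in WT 1 and 8.54 RPM in WT 2, against 2.93 RPM measured in KO 1 and 9.30 RPM in KO 2. MMETn-int had 3 reads in all (2 in WT 1, 1 in KO 2), and RLTRETN_Mm had 4, all in KO 1. The ERVL-MaLR names together had 3 and 5 reads in WT and 13 and 0 in KO. MT2_Mm, the LTR of the MERVL element, lies outside the prefixes and had 4 reads, all in WT 2. In all, 10 repeat names outside the prefixes held 80 reads, 55 of them on Lx.

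Most names were rare. Of the 49 names, 39 had fewer than 10 reads, 22 of them a single read, and 9 had reads in all 4 libraries. WT 1 and WT 2 held reads of 16 and 22 names, and KO 1 and KO 2 of 36 and 19. KO 1, with the most names, was the deepest library, while WT 2 held more names than WT 1 at a lower depth. The part of depth in these numbers was not tested.

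Summed over all names, the repeat-named level did not separate the genotypes. It reached 1420 and 974 RPM in WT 1 and WT 2, against 957 and 1309 RPM in KO 1 and KO 2. WT 1 and KO 2 were high and WT 2 and KO 1 low, so the groups overlapped. The WT mean was 1197 RPM ± 315 (SD, n = 2) and the KO mean 1133 RPM ± 249 (SD, n = 2). Their difference, -63.6 RPM, is smaller than either SD. Without WT 1 the difference was 159 RPM and without WT 2 it was -286 RPM, while it was 112 RPM without KO 1 and -240 RPM without KO 2. Without Lx3B the levels were 332, 595, 468 and 442 RPM in the same order of libraries, a difference of -8.59 RPM. The 2 ERV groups together had 38.7 and 59.8 RPM in WT against 89.3 and 55.8 RPM in KO, which overlap. Taken apart, the ERVL-MaLR names had 6.83 and 14.2 RPM in WT against 19.0 and 0 RPM in KO. The other ERV names had 31.9 and 45.6 RPM in WT against 70.3 and 55.8 RPM in KO, higher in both KO libraries. RLTR19-int held 68 of the 102 reads of these other ERV names, and their difference was not tested.

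Read number was tested for every symbol with a mean of at least 10 reads, with limma's voom on median-of-ratios scaled reads. Of the 49 names 7 reached that mean, and 0 of the 7 changed at an adjusted p of 0.05. The same test called 0 of 4815 symbols (0%). This number depended on the settings: limma-trend and TMM scaling also gave 0, scaling by total reads 7, the replicate block 66 and no filter on low read numbers 96, and it was 93 without WT 1 and 451 without WT 2. An unadjusted p under 0.05 was found for 1 of the 7 names (Lx5), against 498 of all symbols (10.3%). Lx5 met the minimum mean through its KO libraries, so nothing is read from that count. The median log2 change was -0.33 over the 7 names, 2 of them positive, and -0.01 over all 4815 symbols. On scaled reads the KO libraries lay both above or both below the WT libraries in 4 of the 7 names, against 40.5% of all symbols. Lx5 and RLTR19-int were the higher ones in KO, and L1_Mus1 and L1_Mus2 the lower ones. The median and this count both include Lx5, so nothing is read from them either.

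Lx3B had 1088 RPM in WT 1 (478 reads) and 379 RPM in WT 2 (133 reads). The KO libraries had 489 RPM (334 reads) and 867 RPM (373 reads). The WT libraries lay at both extremes with both KO libraries between them. The log2 change was -0.12 with a standard error (SE) of 0.39 (limma, adjusted p = 0.940). Single libraries set its direction: it was 0.73 without WT 1, -0.96 without WT 2 (limma, adjusted p = 0.00105), 0.31 without KO 1 and -0.49 without KO 2. The Rps7 symbol itself had 783 and 285 RPM in WT and 641 and 567 RPM in KO, so it too was lowest in WT 2 and highest in WT 1. Its log2 change was 0.24 (SE 0.36; limma, adjusted p = 0.867), and it was 1.06 without WT 1 (limma, adjusted p = 0.0102) and -0.57 without WT 2.

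L1_Mur2 had 118 and 268 RPM in WT and 154 and 151 RPM in KO. WT 2 stood above the other libraries, whose 95% intervals ended at most at 193 RPM, and the KO libraries lay between those of WT. The log2 change was -0.33 (SE 0.32; limma, adjusted p = 0.766), and 0.16 without WT 2. Rps25, its leading gene, had from 3408 to 4079 RPM in all libraries and a log2 change of 0.03 (SE 0.19).

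Lx5 had 11.4 and 31.3 RPM in WT (5 and 11 reads) and 58.5 and 37.2 RPM in KO (40 and 16 reads). Both KO libraries lay above both WT libraries. The log2 change was 1.21 (SE 0.56; limma, unadjusted p = 0.0431, adjusted p = 0.470, from 0.0655 to 0.999 over the alternatives), and 0.57 without WT 1. RLTR19-int also had higher values in KO, 46.8 and 37.2 RPM against 18.2 and 34.2 RPM in WT. Its log2 change was 0.64 (SE 0.47; limma, adjusted p = 0.662), and 0.27 without WT 1. The leading genes Rps20 and Hnrnpa3 had log2 changes of -0.20 (SE 0.19) and 0.06 (SE 0.25).

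The remaining 3 names had lower means in KO. L1_Mus1 had 84.2 and 99.7 RPM in WT and 65.9 and 81.4 RPM in KO, a log2 change of -0.45 (SE 0.32; limma, adjusted p = 0.652). Rps24, whose contigs held 123 of its 152 reads, had a log2 change of -0.36 (SE 0.19). L1Md_F2 had 29.6 and 54.1 RPM in WT and 36.6 and 23.3 RPM in KO, groups that overlap, with a log2 change of -0.50 (SE 0.44). L1_Mus2 had 25.0 and 25.6 RPM in WT and 17.6 and 23.3 RPM in KO, with a log2 change of -0.50 (SE 0.50), on 9 to 12 reads a library.

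**Figure D2:**
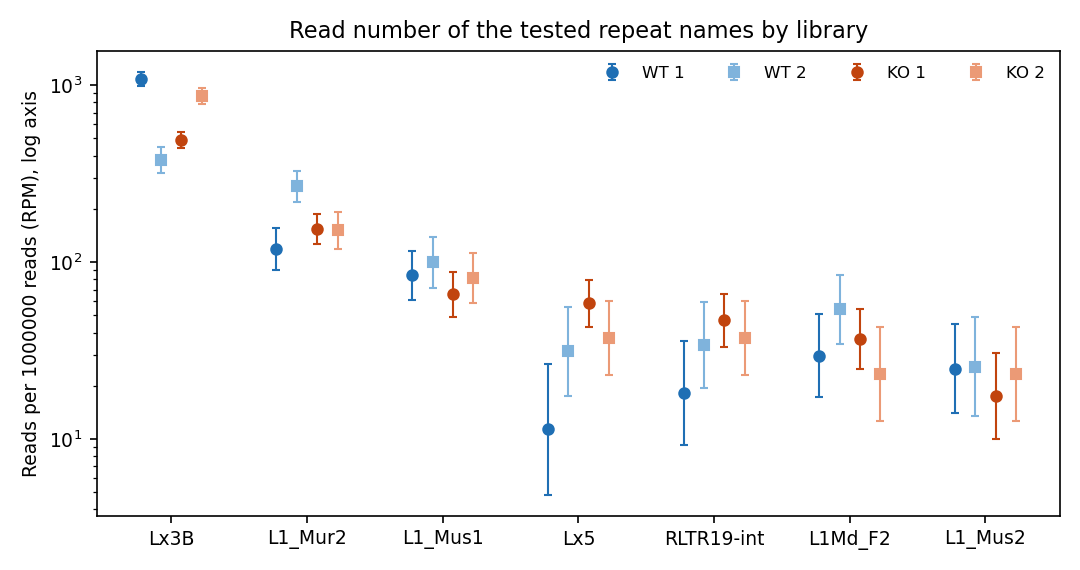
Read number of the 7 tested repeat names (x axis) in reads per 1000000 reads (y axis, log scale), 1 point per library with its 95% Wilson interval. The WT libraries lie at both ends for Lx3B, at 1088 and 379 RPM, and both KO points lie above both WT points for Lx5 and RLTR19-int.

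**Figure D3:**
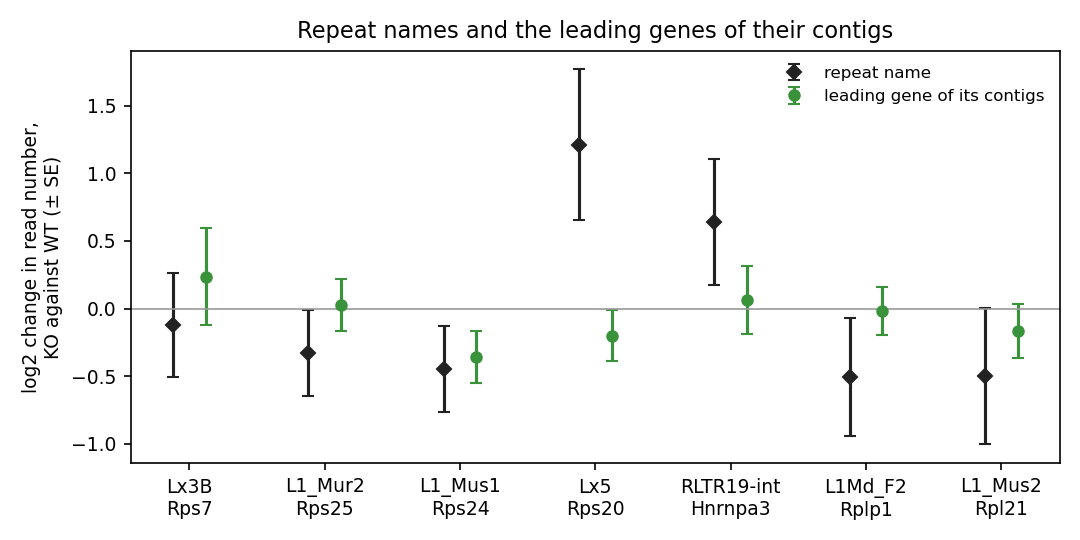
Log2 change in read number, KO against WT (y axis, limma's voom, bars ± SE), for the 7 tested repeat names (diamonds) and for the leading gene of their contigs (circles). The values of the repeat names run from -0.50 for L1Md_F2 to 1.21 for Lx5, and those of the leading genes from -0.36 for Rps24 to 0.24 for Rps7.

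The share of a leading gene's contigs that carried the repeat name needs no scaling between libraries. On the Rps7 contigs, Lx3B was named by 57.5% of 829 reads in WT 1 and 55.6% of 234 reads in WT 2. In KO 1 it was named by 42.5% of 777 reads, and in KO 2 by 59.2% of 628 reads. KO 1 was low, with a 95% Wilson interval of 39.0 to 46.0% that lies below those of the other 3 libraries, and the other 3 overlap. The WT mean was 56.5% ± 1.40 (SD, n = 2), and the KO mean 50.9% ± 11.9 (SD, n = 2). The level of these contigs as a whole was 1886 and 666 RPM in WT and 1137 and 1460 RPM in KO. The gap between the WT libraries in Lx3B was also present in the level of these contigs, while the shares of the WT libraries overlapped. Lx3B itself made up 53.0% of the reads of these contigs, so their level is not a separate measure. The Rps7 symbol alone had 783 and 285 RPM in WT.

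On the Rps25 contigs the share of L1_Mur2 was 3.40% and 7.07% in the WT libraries against 3.76% and 4.03% in the KO libraries. WT 2 was high, with an interval of 5.81 to 8.58% above those of the other libraries, while the level of the contigs ranged only from 3481 to 4091 RPM. Here the high library of the repeat name was high in the share. Lx5 made up 0.161% and 0.492% of the reads of Rps20 contigs in WT and 0.877% and 0.618% in KO. The interval of WT 1 (0.0687 to 0.376%) lay below those of both KO libraries, and that of WT 2 (0.275 to 0.879%) overlapped both. RLTR19-int made up 4.79% and 7.06% of the reads of Hnrnpa3 contigs in WT and 9.04% and 8.12% in KO, with overlapping intervals in all libraries. L1_Mus1 on Rps24 contigs (1.22 to 1.98%), L1Md_F2 on Rplp1 (0.212 to 0.434%) and L1_Mus2 on Rpl21 contigs (0.418 to 0.729%) had overlapping intervals too. L1_Mus3, too rare for the test of read number, made up 0.284% and 0.341% of the reads of Gapdh contigs in WT and 0.314% and 1.07% in KO, on 3 to 16 repeat-named reads. The interval of KO 2 (0.662 to 1.74%) lay above that of WT 1 (0.144 to 0.560%) and overlapped the others.

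**Figure D4:**
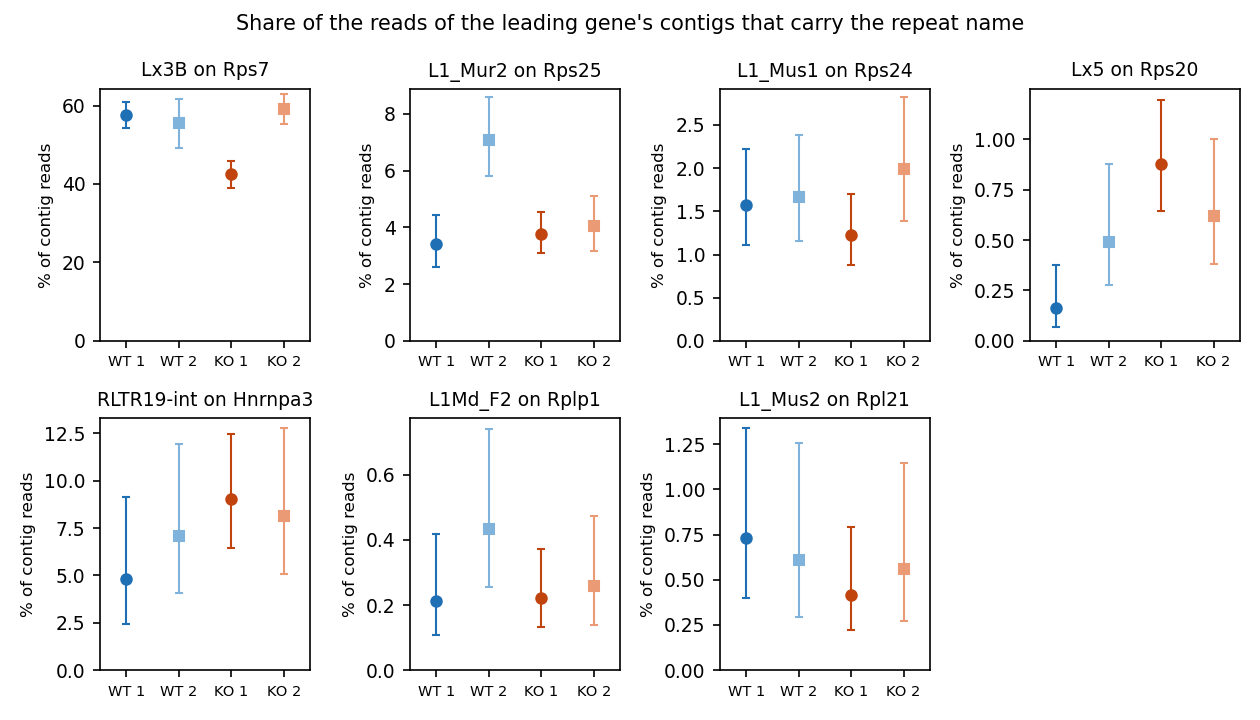
Percent of the reads of the leading gene's contigs that carry the repeat name (y axis), by library (x axis), with 95% Wilson intervals, in 1 panel per tested repeat name. KO 1 is low for Lx3B at 42.5%, and WT 2 is high for L1_Mur2 at 7.07%.

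Tails of repeat-named reads were of messenger RNA length. The median over all repeat-named reads was 109 and 129 nt in the WT libraries and 122 and 102 nt in the KO libraries, above the median of all reads of the library in each case (97.3, 106, 106 and 98.1 nt). The WT mean was 119 nt ± 14.1 (SD, n = 2), the KO mean 112 nt ± 13.9 (SD, n = 2), and the difference of -7.15 nt was smaller than either SD. Leaving out WT 1 or KO 1 gave -17.1 and -17.0 nt, and leaving out WT 2 or KO 2 gave 2.82 and 2.65 nt. The sign also turned without Lx3B (2.28 nt) and for the median over the 8 names with at least 5 reads in each library (5.43 nt). Tails under 30 nt made up from 0.641 to 1.75% of repeat-named reads per library, against 1.55 to 3.02% of all reads. The longest and shortest medians over the 10 names with at least 10 reads were 140 nt for L1Md_F3 and 90.0 nt for RLTR19-int. Not every name lay above the median of all reads. RLTR19-int lay below it in each library (89.7 and 92.2 nt in WT, 83.2 and 92.1 nt in KO). Lx3B (92.5 nt) and Lx5 (94.1 nt) lay below it in KO 2, and L1_Mus1 (93.0 nt) in WT 1. Without Lx3B the pooled medians were 115 and 126 nt in WT and 127 and 119 nt in KO, above it in each library.

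Median tail length per symbol was tested with limma where each library had at least 20 reads, which 3 of the 49 names had. None of the 3 passed an adjusted p of 0.05, nor did any of the 1935 symbols tested (0%), and an unadjusted p under 0.05 was found for 0 of the 3 against 45 of all symbols (2.33%). The KO libraries lay both above or both below the WT libraries in 0 of the 3, against 26.5% of all symbols. The mean of log2 lengths in place of the median also gave 0 calls. Lx3B had median tails of 108 and 130 nt in WT and 115 and 92.5 nt in KO, a log2 change of -0.20 (SE 0.12; limma, adjusted p = 1.00). Rps7 had 108 and 134 nt in WT and 107 and 100 nt in KO, a log2 change of -0.22 (SE 0.13). In both symbols WT 2 had the longest and KO 2 the shortest tails. L1_Mur2 had 119 and 142 nt in WT and 137 and 131 nt in KO, a log2 change of 0.04 (SE 0.16), and L1_Mus1 had 93.0 and 126 nt in WT and 135 and 108 nt in KO, a log2 change of 0.16 (SE 0.20). Without WT 1 these were -0.09 and -0.06.

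Repeat-named and gene-named reads of the same contigs were also compared within each library, a comparison chosen after the values had been seen. L1_Mur2 reads had longer median tails than Rps25 reads in 4 of 4 libraries, by 19.6 and 33.5 nt in the WT libraries and by 32.6 and 29.0 nt in the KO libraries. The mean difference was 28.7 nt ± 6.34 (SD, n = 4). L1Md_F2 reads had longer tails than Rplp1 reads in 4 of 4 libraries, by 10.5 to 47.6 nt, on 8 to 14 repeat-named reads a library. RLTR19-int reads had shorter tails than Hnrnpa3 reads in 4 of 4 libraries, with differences from -33.4 to -11.7 nt on 8 to 32 repeat-named reads a library and a mean difference of -20.3 nt ± 9.24 (SD, n = 4). For each of these 3 differences the exact permutation test over paired libraries (two-sided) gave p = 0.125, the lowest value open to 4 pairs, and 0.333 after adjustment over the 8 pairs compared, so none passed 0.05. Lx3B differed from Rps7 by only -0.414 nt ± 6.49 (SD, n = 4) on average, longer in 1 library and shorter in 3 (exact two-sided permutation p = 0.875). L1_Mus1 and L1_Mus2 were longer than Rps24 and Rpl21 in 3 of 4 libraries, and Lx5 and L1_Mus3 were longer than Rps20 and Gapdh in 2 of 4.

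**Figure D5:**
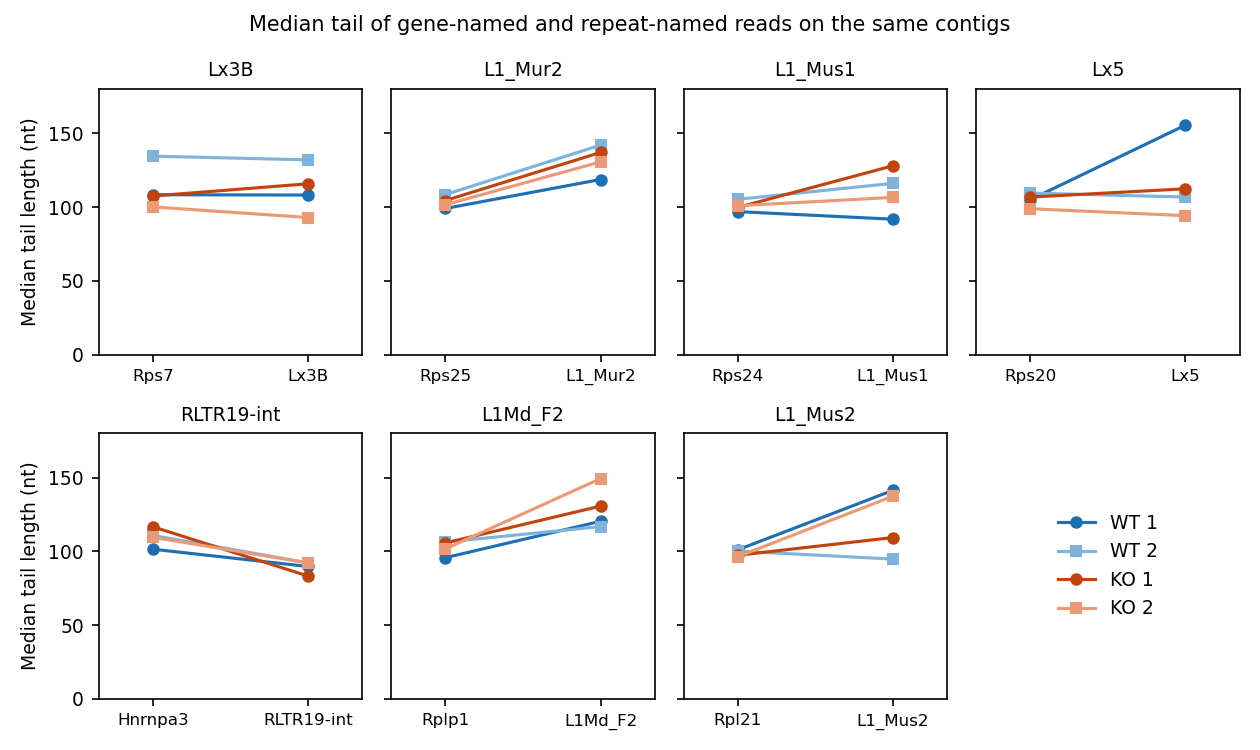
Median tail length in nt (y axis) of reads with the leading gene's symbol (left point) and with the repeat name (right point) on the same contigs, 1 line per library, in 1 panel per tested repeat name. The lines rise in all 4 libraries for L1_Mur2 and L1Md_F2, fall in all 4 for RLTR19-int, and run nearly level for Lx3B, where the mean difference is -0.414 nt.

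Genes known to control retroelements were examined in the same fits. Of the 53 symbols listed, 37 were tested for read number and 0 changed at an adjusted p of 0.05, with a median log2 change of 0.08 and 22 positive values. An unadjusted p under 0.05 was found for 8 of the 37 (Atrx, Dnmt3a, Dnmt3b, Dnmt3l, L1td1, Mov10, Trim28 and Zfp42), against 10.3% of all symbols. That count includes Mov10, the gene knocked out, so nothing is read from it. Mov10, which met the minimum mean through its WT libraries, had the smallest p (limma, adjusted p = 0.0553, from 2.06e-06 to 0.994 over the alternatives). Its fitted fold rests on 0 and 1 reads in KO and so on the reads added before taking logs, and is not given. Dnmt3l, a cofactor of the de novo DNA methyltransferases, had 61.4 and 48.4 RPM in WT and 143 and 156 RPM in KO. Its log2 change was 1.31 (SE 0.33; limma, adjusted p = 0.151), and the adjusted p over the alternatives ran from 0.0246 (without WT 1) to 0.994 (without KO 2). It also passed with the replicate block (0.0442) and without WT 2 (0.0469), and did not pass with limma-trend (0.185), with TMM scaling (0.149) or without KO 1 (0.714). Zfp42, a zinc finger protein and stem cell marker, had 974 and 627 RPM in WT and 439 and 395 RPM in KO. Its log2 change was -1.02 (SE 0.27; limma, adjusted p = 0.160), and the adjusted p over the alternatives ran from 4.02e-07 (without WT 2) to 0.994 (without KO 2). It also passed with the replicate block (0.0156) and with no filter on low read numbers (0.0207), and did not pass with limma-trend (0.247), without KO 1 (0.714) or without WT 1 (0.238), where the log2 change was -0.61. For tail length 16 of the listed genes were tested and 0 passed, with a median log2 change of 0.00 and 8 positive values. The smallest unadjusted p-values there were those of L1td1, Rnaseh2a and Rnaseh2b, with log2 changes of -0.26, 0.26 and -0.26 (limma, adjusted p = 1.00 for each).

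Genes of the 2-cell-like state, in which MERVL is known to be active, were represented mainly by Eif1a. Of 25 listed symbols 12 had reads, with summed levels of 137 and 234 RPM in WT and 181 and 221 RPM in KO, which overlap. Eif1a, a translation initiation factor, was the only one tested, with log2 changes of 0.26 in read number (SE 0.29; limma, adjusted p = 0.815) and -0.10 in tail length (SE 0.16; limma, adjusted p = 1.00). It had 50 and 67 reads in WT and 117 and 92 in KO. The other 24 symbols together had 10 and 15 reads in WT and 7 and 3 in KO. Their summed level was 22.8 and 42.7 RPM in WT and 10.2 and 6.98 RPM in KO, lower in both KO libraries. This difference rests on few reads and was not tested. Only 11 of the 24 symbols had reads, and Dux, Duxf3, Tcstv1 and Zscan4b were among those with none. The 24 include Zfp809, which is also on the list of retroelement control genes.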

How the data were processed

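Direct RNA libraries were made from oligo(dT)-selected RNA with the SQK-RNA002 kit and DeePlexiCon adapters and sequenced on MinION R9 flow cells, per the labels' protocols. The deposited table gives, per the file headers, a contig, a symbol, a library and a tail length for each read; the tail length is an estimate in nt, in no other unit, and no normalization by the authors is recorded. minimap2 2.20 is named in the submitters' processing notes; the basecaller, tail estimator, genome build and the way symbols were given to reads are not given in the sources used here. RNA without a tail long enough for oligo(dT) capture is not measured.

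Reads with a tail above 0 nt were used (3 left out). Reads per symbol were counted here and tested with limma 3.58.1 (voom, 0.5 reads added, median-of-ratios scaling, mean of at least 10 reads) in R 4.3.3; log2 median tails were tested with limma (trend on log2 mean reads, at least 20 reads in each library). P-values were adjusted by Benjamini-Hochberg over all symbols tested. Shares have 95% Wilson intervals, which cover counting error only. A gene symbol is any symbol that is not a repeat name; 13590 symbols matched the table of mouse gene names and 13595 a RefSeq biotype. RPM values are per 1000000 reads with a tail. No library was left out. The repeat names and the gene lists were chosen with earlier results of these data known, and the shares of contig reads and the tail comparison on shared contigs were added after the values had been seen. Names tested in either fit are given by library, with the others among the 12 with most reads, and Mov10 is always named; of each gene list, those past the threshold or else the 3 with the smallest p are named, and leading genes of contigs are named beside their repeat. No sequences are shown. Python 3.11.15, pandas 2.3.3, numpy 2.4.6, scipy 1.17.1 and matplotlib 3.10.9 were used.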

Additional observations from a re-analysis of the deposited data

How the results depend on the processing

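Of the 49 repeat names 39 had fewer than 10 reads, too few for either test, and each genotype had 2 libraries. Alternatives that kept all 4 libraries gave 52 values for the 7 names tested for read number and the 3 tested for tail length. In all 52 the name kept its direction and stayed short of the threshold. A name has no value under an alternative in which it could not be tested. With a library left out, 33 values did the same, 6 changed sign and 1 passed the threshold (Lx3B without WT 2).

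The number of symbols called for read number was 7 with scaling by total reads, 96 with no filter on low read numbers and 66 with the replicate block, and 0 to 451 with a library left out. For tail length it was 1 with at least 10 reads in each library and 0 to 2 with a library left out. Replicate numbers are not stated to mark a shared batch. From symbol to symbol, same-numbered libraries did not deviate together (r = 0.0155 over 4815 symbols for read number, 0.0135 over 1935 for tail length). This r does not see a shift common to all symbols of a library. With the replicate block 0 symbols were called for tail length. Under scaling by total reads the median log2 change over all symbols tested was 0.11, and that of Rplp1 was 0.10, against -0.02 with median-of-ratios scaling. The means of log2 tail lengths gave log2 changes of 0.0042 for Rps25 and 0.0035 for Rps24. Restricted to the 9 reads on contigs with no gene symbol, the difference in median tail was 49.2 nt and no name could be tested. Median-of-ratios scaling gave a difference in summed level of -174 RPM.

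With a library left out, log2 changes in read number ran from -0.96 to 0.73 for Lx3B, -0.84 to 0.16 for L1_Mur2, -0.57 to 1.06 for Rps7, -0.0515 to 0.123 for Rps25, -0.10 to 0.22 for Hnrnpa3, -0.115 to 0.0785 for Rplp1 and -0.0424 to 0.525 for Eif1a. For tail length they ran from -0.0859 to 0.173 for L1_Mur2, -0.0612 to 0.377 for L1_Mus1, -0.0866 to 0.0657 for Rps25, -0.0738 to 0.0589 for Rps24 and -0.251 to 0.0476 for Eif1a. The summed level differed by -286 to 159 RPM and the median tail by -17.1 to 2.82 nt. In these fits the lone library of a genotype is assumed to vary like those of the other genotype. The cause of these changes was not tested.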
